A study of Mus musculus with 8 samples.

Results

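The endoplasmic reticulum chaperones examined here are 10 genes chosen by name, all of them present among the 13439 genes measured: Hspa5, Hsp90b1, Pdia4, Pdia6, Calr, Xbp1, Manf, Creld2, Sdf2l1 and Herpud1. RNA came from left ventricles of mice in 8 libraries, 2 for each of 4 groups. Floxed hearts (Lin28afl/fl) carry the gene for Lin28a, an RNA-binding protein that blocks let-7 microRNA maturation, and the knockout hearts (Lin28aCko, here cKO) lack it in the heart, according to the series, which names littermates as controls. Each genotype was studied after sham surgery and after transverse aortic constriction (TAC), in which narrowing of the aortic arch makes the left ventricle pump against a higher pressure. TAC hearts were taken at day 5, and the day for sham hearts, the strain, age and sex of the mice and the promoter driving the deletion are not stated in the labels. The libraries are called duplicates, with no word on whether they stem from different mice. Sex-linked transcripts, given below, differ between the cKO sham libraries alone. The p-values therefore cover the spread between these samples alone, which may be technical in the other groups. The title of the series poses the question of Lin28a and hypertrophy under pressure overload.

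Proteins that are secreted or placed in membranes fold inside the endoplasmic reticulum (ER), where chaperones hold unfolded chains and oxidoreductases form disulfide bonds. When unfolded chains accumulate, the sensors Ern1 (IRE1), Atf6 and Eif2ak3 (PERK) start the unfolded protein response, which raises transcription of the folding machinery. In heart muscle the ER is continuous with the sarcoplasmic reticulum that stores calcium for contraction, and growth of the muscle under load needs more protein synthesis. Hspa5 (BiP, also called GRP78), Hsp90b1 (GRP94) and Calr (calreticulin) are the abundant chaperones. Pdia4 and Pdia6 are disulfide isomerases. Manf, Creld2 and Sdf2l1 are small soluble proteins of the ER lumen, Xbp1 is the transcription factor activated by IRE1, and Herpud1 is a membrane protein that helps send misfolded proteins to degradation.

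Many of these genes are controlled through the ER stress response element (ERSE), which reads CCAAT, then 9 bases of any kind, then CCACG, and which is bound by NF-Y at its CCAAT part and by ATF6 or XBP1 at its CCACG part. RefSeq promoter windows of 300 bases in GRCm38.p6 (250 before and 50 after the annotated start) matched 9 of the 10 genes, Manf being the gene without an entry. An exact ERSE on either strand lay in 5 of the 9, against 0.119% of all 32817 windows and 15 of the 9689 tested genes with a window (0.155%). The genes were chosen by name, and many are known for control through this element. Their matches are therefore no test of enrichment. The related ERSE-II, which reads ATTGG, 1 base of any kind and CCACG, was found in Herpud1 and in 0.0366% of all windows. The Herpud1 window also held TGATGNAA, a core of elements bound by ATF4, present in 3.97% of all windows, and this is the only one of the 9 with a match to it. The XBP1 element TGACGTGG was found in none of the 9 and in 0.676% of all windows. The matched stretches are printed below as strand-oriented sequence from RefSeq, with the fixed bases of the elements in capitals. A CGTGG before an ATTGG is the ERSE read on the opposite strand, and the first capitals of Herpud1 are the ATF4 core on that strand. The Hspa5 match lies before the RefSeq start but, with all 19 of its bases, inside an exon of the GENCODE M21 annotation, whose gene start is further upstream. These are matches of letters and no measurement of binding.
Hspa5 (chr2:34772020-34772048, + strand): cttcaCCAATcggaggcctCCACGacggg
Hsp90b1 (chr10:86705510-86705694, - strand): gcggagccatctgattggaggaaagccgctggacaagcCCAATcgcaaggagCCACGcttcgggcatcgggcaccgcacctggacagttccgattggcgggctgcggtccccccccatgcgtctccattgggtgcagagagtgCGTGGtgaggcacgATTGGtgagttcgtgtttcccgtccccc
Pdia6 (chr12:17266451-17266544, + strand): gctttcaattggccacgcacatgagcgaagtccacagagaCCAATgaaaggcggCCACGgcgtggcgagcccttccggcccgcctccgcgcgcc
Calr (chr8:84847035-84847133, - strand): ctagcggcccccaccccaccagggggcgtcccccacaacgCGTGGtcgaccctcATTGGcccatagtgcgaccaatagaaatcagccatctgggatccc
Creld2 (chr15:88819480-88819578, + strand): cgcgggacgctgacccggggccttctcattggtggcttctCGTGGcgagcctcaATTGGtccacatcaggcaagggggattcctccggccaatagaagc
Herpud1 (chr8:94386277-94386427, + strand): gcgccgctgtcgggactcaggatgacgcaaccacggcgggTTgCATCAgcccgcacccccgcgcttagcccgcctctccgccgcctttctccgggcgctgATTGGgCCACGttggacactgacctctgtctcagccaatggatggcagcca

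**Figure D1:**
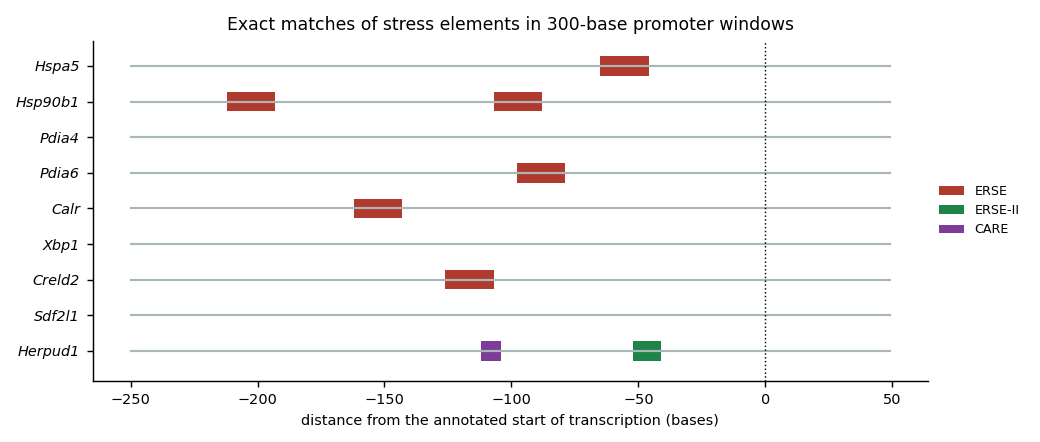
Positions of exact matches of ERSE, ERSE-II and the ATF4 core (labelled CARE) in the promoter windows of 9 genes, as distance in bases from the annotated start of transcription. Hsp90b1 has 2 ERSE matches, Hspa5, Pdia6, Calr and Creld2 have 1 each, Herpud1 has the other elements, and no exact match of these elements lies in the windows of Pdia4, Xbp1 and Sdf2l1.

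Reads assigned to genes numbered 10315902 to 21871570 per library, and values are given in CPM (reads of a gene scaled to 1000000 assigned reads). A count of 0 allows up to 3 reads, or 0.137 to 0.291 CPM depending on the library, for counting error alone. The 10 genes had between 47 reads (Sdf2l1 in floxed sham 2) and 16836 reads (Calr in floxed TAC 2). Cardiomyocyte markers summed to 45709 to 102565 CPM over the libraries, with all 12 detected, so heart muscle was represented. The female-specific Xist reached 44.3 CPM in cKO sham 2, compared with 0.173 CPM or less elsewhere, and the Y-linked Ddx3y was at 0 in that library. Ddx3y was at 63.2 CPM in cKO sham 1, so the cKO sham group mixes the sexes and its libraries hold RNA of different mice. The atrial light chain Myl7 was at 65 to 133 CPM in floxed sham 2, cKO sham 2 and cKO TAC 2 against at most 6.16 CPM in the other 5 libraries. Changes were tested with limma on log2(CPM + 1) over 13120 genes, and a gene passed at an adjusted p (Benjamini-Hochberg) below 0.05. All 10 genes entered the test. Lin28a itself was not analysed here, so the knockout was not checked at the RNA level. Gene positions below are those of GENCODE M21 in GRCm38.

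Under pressure overload with Lin28a intact, 9 of the 10 genes rose and Herpud1 fell. Of all genes tested, 42.4% passed in this comparison of TAC with sham in floxed hearts, 27.9% as higher and 14.5% as lower. The libraries of both operations did not overlap for any of the 10, a separation upward in 46.7% and downward in 28.9% of all genes. The median log2 difference of the 10 was 1.21, against 0.14 for all genes tested. In cKO hearts none of the 10 passed the threshold for TAC against sham, where 2.53% of all genes did (2.09% higher and 0.442% lower), and 9 of the 10 differences were below 0, with a median of -0.36 against 0.02 for all genes. By limma, 5 of the 10 had an unadjusted p under 0.05 in cKO hearts, all of them for lower values after TAC. The share of all genes under that unadjusted limit was not counted, so these 5 cannot be read against it. Limma-voom, edgeR and DESeq2 called none of the 10 there either. For 6 genes both cKO TAC libraries lay below both cKO sham libraries, as in 19.9% of all genes, for 0 they lay above, as in 23.0% of all genes, and for Pdia4, Xbp1, Manf and Herpud1 the groups overlapped. Both floxed TAC libraries stood above all 6 others for 8 of the 10, the exceptions being Hspa5 and Herpud1, and this order was seen in 32.7% of all genes.

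**Figure D2:**
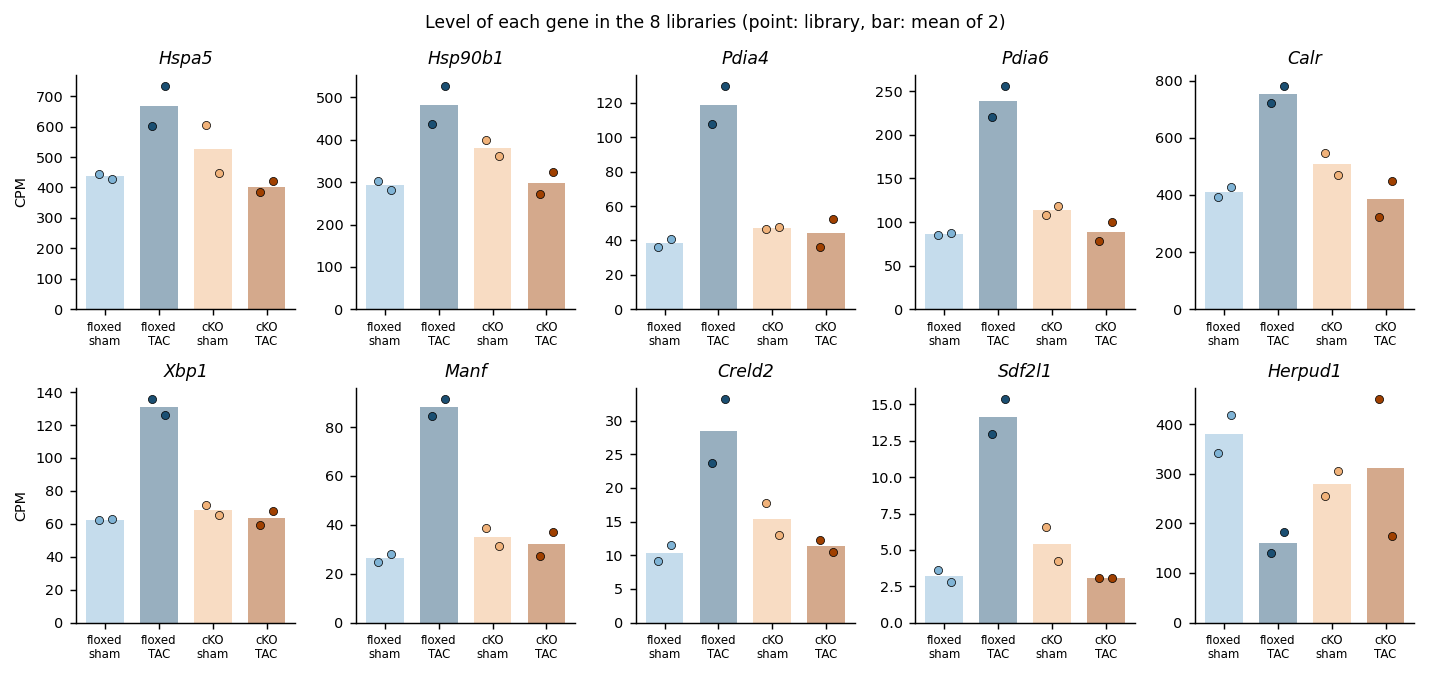
Level of each gene in CPM in the 8 libraries, with a point per library and a bar for each group mean. In 8 of the 10 panels both floxed TAC libraries lie above all 6 others, in Hspa5 a cKO sham library reaches the lower floxed TAC library, and in Herpud1 the floxed TAC libraries lie at 139 and 184 CPM with the cKO TAC libraries far apart.

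Hspa5, the most general chaperone of the lumen and the regulator that holds the stress sensors inactive (chromosome 2, 34771970 to 34777547), was at 445 and 428 CPM in floxed sham, 603 and 734 CPM in floxed TAC, 604 and 447 CPM in cKO sham, and 384 and 420 CPM in cKO TAC libraries. Floxed TAC stood above floxed sham without overlap, and both cKO TAC libraries stood below all 6 others. The mean rose from 437 ± 12 to 669 ± 92.5 CPM (SD, n = 2) in floxed hearts, a log2 difference of 0.61 ± 0.15 (standard error, adjusted p = 0.0108 by limma). In cKO hearts the difference was -0.37 ± 0.15 (adjusted p = 0.273). Hspa5 was the least stable of the rises: without floxed sham 1, floxed sham 2 or floxed TAC 2 its adjusted p was 0.0532, 0.0689 and 0.0843.

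Hsp90b1, the ER member of the HSP90 family (chromosome 10, 86690209 to 86705509), was at 304 and 282 CPM in floxed sham, 438 and 528 CPM in floxed TAC, 398 and 361 CPM in cKO sham, and 272 and 324 CPM in cKO TAC libraries. The floxed TAC libraries were the highest of the 8. Its log2 difference was 0.71 ± 0.13 in floxed hearts (adjusted p = 0.00194 by limma) and -0.35 ± 0.13 in cKO hearts (adjusted p = 0.217). Calr, a calcium-binding chaperone of glycoproteins (chromosome 8, 84841850 to 84846934), was at 394 and 426 CPM in floxed sham, 723 and 782 CPM in floxed TAC, 546 and 471 CPM in cKO sham, and 324 and 448 CPM in cKO TAC libraries. It rose by log2 0.87 ± 0.16 in floxed hearts (adjusted p = 0.00161), and its difference in cKO hearts was -0.41 ± 0.16 (adjusted p = 0.222).

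The disulfide isomerases rose more than these abundant chaperones. Pdia4 (chromosome 6, 47796141 to 47813430) was at 36.3 and 40.6 CPM in floxed sham, 108 and 130 CPM in floxed TAC, 46.6 and 47.8 CPM in cKO sham, and 36.1 and 52.6 CPM in cKO TAC libraries. Its cKO TAC libraries enclosed the cKO sham values. The log2 difference was 1.6 ± 0.18 in floxed hearts (adjusted p = 0.000126 by limma) and -0.11 ± 0.18 in cKO hearts (adjusted p = 0.815). Pdia6 (chromosome 12, 17266545 to 17284770) was at 85.4 and 87.2 CPM in floxed sham, 220 and 256 CPM in floxed TAC, 109 and 119 CPM in cKO sham, and 78.1 and 99.7 CPM in cKO TAC libraries. It rose by log2 1.45 ± 0.14 (adjusted p = 5.89e-05) in floxed hearts, and its difference in cKO hearts was -0.36 ± 0.14 (adjusted p = 0.228).

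Among the small luminal proteins were the largest rises of the 10. Manf, a protein named as a neurotrophic factor that is kept in the ER and released under stress (chromosome 9, 106838312 to 106891979), was at 24.9 and 28 CPM in floxed sham, 84.6 and 91.5 CPM in floxed TAC, 38.7 and 31.4 CPM in cKO sham, and 27.1 and 36.9 CPM in cKO TAC libraries. Its mean in floxed TAC was 3.33 times that in floxed sham (log2 1.70 ± 0.17, adjusted p = 7.71e-05 by limma), and the difference in cKO hearts was -0.14 ± 0.17 (adjusted p = 0.762). Sdf2l1, which keeps unfolded proteins soluble as part of chaperone complexes (chromosome 16, 17130138 to 17132383), was at 3.63 and 2.82 CPM in floxed sham, 12.9 and 15.4 CPM in floxed TAC, 6.59 and 4.25 CPM in cKO sham, and 3.03 and 3.05 CPM in cKO TAC libraries. The floxed TAC mean was 4.39 times the floxed sham mean (log2 1.84 ± 0.24, adjusted p = 0.000274), and in cKO hearts the difference was -0.64 ± 0.24 (adjusted p = 0.216). Sdf2l1 was the least abundant of the 10, with 47 to 68 reads in floxed sham, cKO sham and cKO TAC libraries and 283 and 331 reads in floxed TAC libraries. Creld2, an ER protein with disulfide isomerase activity (chromosome 15, 88819646 to 88826683), was at 9.15 and 11.6 CPM in floxed sham, 23.7 and 33.2 CPM in floxed TAC, 17.7 and 13.1 CPM in cKO sham, and 12.2 and 10.5 CPM in cKO TAC libraries. Its log2 difference was 1.36 ± 0.22 in floxed (adjusted p = 0.001) and -0.39 ± 0.22 in cKO hearts (adjusted p = 0.421).

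Xbp1 (chromosome 11, 5520659 to 5525893) had closely spaced floxed sham libraries, at 62.3 and 62.6 CPM, and was at 136 and 126 CPM in floxed TAC libraries. In cKO hearts it was at 71.2 and 65.6 CPM after sham and 59.4 and 67.6 CPM after TAC, overlapping ranges. It rose by log2 1.05 ± 0.11 in floxed hearts (adjusted p = 0.000116 by limma), against -0.11 ± 0.11 in cKO hearts (adjusted p = 0.703). The active form of XBP1 is made when IRE1 removes 26 bases from exon 4 of the mRNA (chr11:5524279-5524304 in GRCm38), which shifts the reading frame. Those bases are shown in capitals in the Xbp1 transcript of GENCODE M21, found as the stretch between the paired loop motifs that IRE1 cuts.
Xbp1: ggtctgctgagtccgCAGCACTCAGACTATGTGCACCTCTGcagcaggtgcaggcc
The deposited value sums all reads of the gene, so the share of Xbp1 mRNA without these bases was not analysed here, and the rise is in total Xbp1 mRNA.

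Herpud1 (chromosome 8, 94386438 to 94395377) went against the other 9 genes. It was at 343 and 420 CPM in floxed sham and 139 and 184 CPM in floxed TAC libraries, without overlap. In cKO hearts it was at 255 and 306 CPM after sham, and at 451 and 174 CPM after TAC, so that 1 cKO TAC library was the highest of all 8 and the other lay within the floxed TAC range. The fall in floxed hearts was log2 -1.24 ± 0.35 (adjusted p = 0.0175 by limma). It missed the threshold without floxed sham 1 (adjusted p = 0.0512), floxed sham 2 (0.102) or floxed TAC 1 (0.113). In cKO hearts the log2 difference of 0.00 ± 0.35 (adjusted p = 0.996) is a mean of unlike libraries. Without cKO TAC 1 the difference was -0.68 (adjusted p = 0.0868). Herpud1 is the gene with the ERSE-II and ATF4 core matches among the 9 with a promoter window. The 2 cKO TAC libraries also differed in matrix and macrophage markers, which summed to 4730 and 752 CPM in cKO TAC 1 and to 6999 and 1034 CPM in cKO TAC 2. Endothelial markers summed to 968 and 1493 CPM, atrial markers to 27 and 152 CPM, and cardiomyocyte markers to 91707 and 70285 CPM in the same libraries. The part of these differences in the Herpud1 values was not tested.

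The genotypes were then compared within each operation, comparisons that share their libraries with those above. After TAC, 9 of the 10 genes were lower in cKO than in floxed hearts (of all genes 24.9% passed, 16.5% as lower and 8.39% as higher), with a median log2 difference of -1.13 against -0.10 for all genes. The cKO TAC mean was 0.215 of the floxed TAC mean for Sdf2l1 (log2 -1.90 ± 0.24, adjusted p = 0.00126 by limma), 0.364 for Manf (log2 -1.45 ± 0.17, adjusted p = 0.00106) and 0.602 for Hspa5 (log2 -0.73 ± 0.15, adjusted p = 0.00966). The groups did not overlap for these 9, a separation downward in 40.2% and upward in 23.6% of all genes. Hspa5 missed the threshold without floxed TAC 2 (adjusted p = 0.0737) or cKO TAC 1 (0.0559). Herpud1 was the exception, at log2 0.81 ± 0.35 (adjusted p = 0.124), and it passed as higher in cKO hearts without cKO TAC 2 (log2 1.49, adjusted p = 0.00113).

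After sham, none of the 10 passed, with adjusted p from 0.591 to 0.792 by limma, and 0.0534% of all genes did (0.0457% higher, 0.00762% lower). By unadjusted p 5 of the 10 were under 0.05, a count that again has no share of all genes to be read against. Limma-voom, edgeR and DESeq2 called none of the 10. All genes but Herpud1 had both cKO sham libraries above both floxed sham libraries, a separation also seen in 24.9% of all genes tested. The log2 differences of these 9 ran from 0.13 for Xbp1 to 0.59 for Sdf2l1, and the median of the 10 was 0.34 against 0.02 for all genes. Hsp90b1 (95% interval 0.08 to 0.67) and Pdia6 (0.09 to 0.70) had the lowest p. Herpud1 was at log2 -0.44 ± 0.35, with both cKO sham libraries below both floxed sham libraries, as in 17.1% of all genes.

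**Figure D3:**
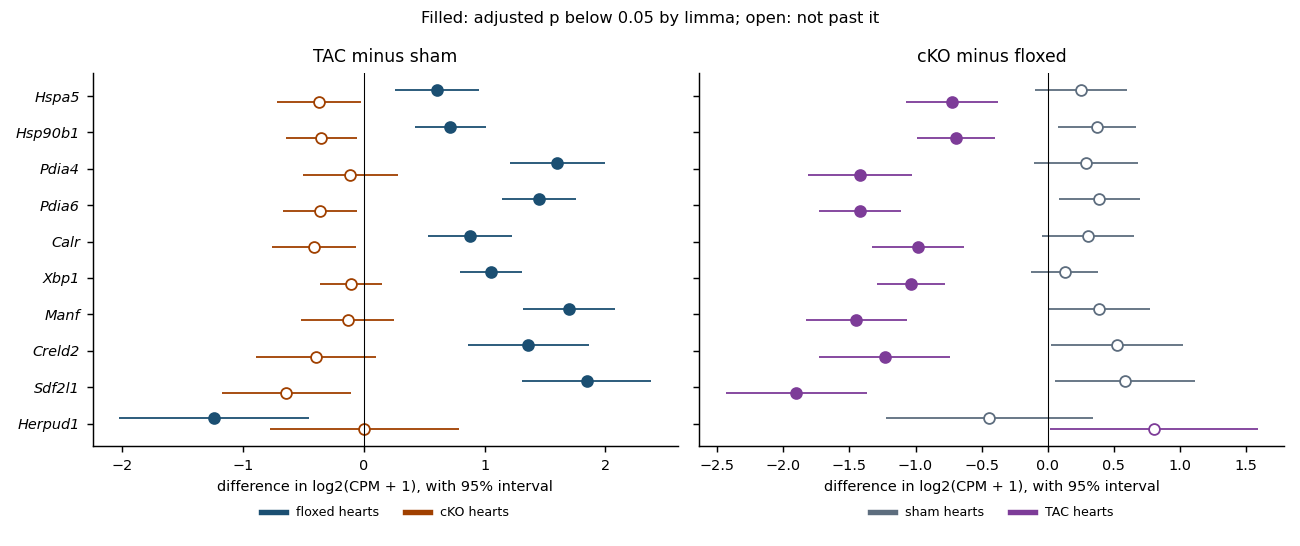
Differences in log2(CPM + 1) with their 95% intervals from limma, for TAC minus sham in floxed and cKO hearts (left) and cKO minus floxed in sham and TAC hearts (right), with filled points past the adjusted threshold. The floxed TAC response lies right of 0 for all genes but Herpud1, whereas the cKO response of those 9 lies at or left of 0.

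The test of the difference between the TAC responses, the genotype by surgery interaction, passed for 9 of the 10. All 9 had a negative sign, a lower TAC response in cKO than in floxed hearts. Of all genes 14.1% passed, 9.18% with a negative and 4.93% with a positive sign. A positive sign also covers genes that fell less in cKO than in floxed hearts. The interaction was log2 -2.49 ± 0.34 for Sdf2l1 (adjusted p = 0.00469 by limma), -1.84 ± 0.24 for Manf (0.00465), -1.81 ± 0.19 for Pdia6 (0.00326) and -1.76 ± 0.31 for Creld2 (0.0104). It was -1.71 for Pdia4, -1.29 for Calr, -1.16 for Xbp1, -1.07 for Hsp90b1 and -0.98 for Hspa5. Without floxed sham 1 it passed for 5 of these 9, with Hspa5, Hsp90b1, Calr and Creld2 at adjusted p from 0.0501 to 0.083, in a fit where all genes past the threshold fell from 1851 to 253. For Hspa5 the interaction missed the threshold in 5 of the 8 fits that left out 1 library, also without floxed sham 2 (adjusted p = 0.0776), floxed TAC 2 (0.07), cKO sham 1 (0.0528) or cKO TAC 1 (0.0544). Herpud1 stood at log2 1.25 ± 0.50 (adjusted p = 0.119), and at 1.93 (adjusted p = 0.00167) without cKO TAC 2. The 95% interval of the cKO response reached at most 0.28 for these 9 genes (Pdia4), and the lowest bound of the floxed response was 0.26 (Hspa5).

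Scaling between libraries changed the sizes and not the calls of the 10. The median of all genes was 0.14 in floxed hearts as scaled by the authors and 0.00 under RLE scaling, where the median of the 10 was 1.07. Of the genes called in floxed hearts 65.7% were higher, or 53.4% under RLE, and of those called between genotypes after TAC 33.7% or 44.8% were higher, and in the interaction 35% or 47.9%.

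Levels of different genes were set side by side per kilobase of the longest GENCODE M21 principal transcript. In floxed sham hearts Herpud1 (195 ± 27.7 CPM per kb, SD, n = 2) and Calr (188 ± 10.5) had the highest levels, with overlapping libraries. They were followed by Hspa5 (119), Hsp90b1 (104), Pdia6 (39.7), Xbp1 (29.3), Pdia4 (16), Manf (11.8), Creld2 (7.59) and Sdf2l1 (2.91), where no neighbouring libraries overlapped. In floxed TAC hearts Calr was highest at 345 ± 19.1 CPM per kb and Herpud1 had moved to the fifth place at 82.7 ± 16, below Pdia6 at 110. The order of the other 9 genes among themselves was the same in the 4 groups, although Hspa5 and Hsp90b1 overlapped in floxed TAC, cKO sham and cKO TAC libraries, and Pdia4 and Manf in cKO TAC libraries. Hspa5 has a second principal transcript of 2613 bases beside that of 3672 bases, which would put its level higher. Exons of Hsp90b1, Pdia4, Pdia6 and Manf overlap annotated exons of other genes, and the strand setting of the counting is not given in the sources used here.

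Of all other genes, those whose pattern over the 8 libraries was most like that of Hspa5 were 6530402F18Rik, Dnajb11, Nfkb2, Bloc1s3 and Eif2ak3. Their root mean square differences from Hspa5 in centred log2(CPM + 1) were 0.07, 0.08, 0.10, 0.11 and 0.11, and Hsp90b1 lay at 0.10. Dnajb11 is a DnaJ cofactor of BiP and Eif2ak3 is the stress sensor PERK. Calr ranked 52 of 13119 genes by this measure, Xbp1 1394, Creld2 3412, Pdia6 5751, Pdia4 7972, Manf 8116, Sdf2l1 9682 and Herpud1 12373. The measure is not scaled for amplitude, so a gene with a larger rise than Hspa5, such as Sdf2l1, ranks lower even on a like course. Herpud1 had the opposite course.

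Other genes of ER protein folding moved in the same direction in floxed TAC hearts. Of 26 further folding factors 17 were higher, 1 was lower and 8 did not pass, with a median log2 difference of 0.63. The counts for this and the following lists stand beside 27.9% of all genes higher and 14.5% lower in floxed hearts, and 2.09% and 0.442% in cKO hearts. The disulfide isomerase gene Pdia5 was at 2.98 and 4.5 CPM in floxed sham and 20 and 21.7 CPM in floxed TAC libraries (log2 2.22 ± 0.21, adjusted p = 6e-05 by limma). The prolyl isomerase Fkbp11 (log2 2.12), the thioredoxin-domain protein Txndc5 (log2 1.87) and P4hb, the classical protein disulfide isomerase (log2 1.57), rose as well. In cKO hearts none of the 26 rose and 1 fell, the membrane chaperone Canx (log2 -0.48, adjusted p = 0.0369), which had not changed beyond the threshold in floxed hearts (log2 0.02). Tmx1 was the factor that fell in floxed hearts (log2 -0.57). Canx and Tmx1 were chosen for naming after their values were seen. The interaction passed for 16 of the 26, all lower, as for 9.18% of all genes.

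The machinery that brings proteins into the ER and out of it rose too. Of 20 genes of translocation and signal peptide removal 13 rose and 0 fell in floxed hearts (27.9% and 14.5% of all genes), with a median of 0.57. Among them were the signal peptidase subunit Spcs3 (log2 2.03), the channel subunits Sec61b (log2 1.77) and Sec61a1 (log2 1.53), and Ssr2 (log2 1.19). Of 19 genes of ER to Golgi traffic 12 rose and 1 fell, with a median of 0.44. This list holds the KDEL receptors, which return escaped luminal chaperones such as BiP to the ER. Kdelr3 was at 7.92 and 9.72 CPM in floxed sham, 45.4 and 44.4 CPM in floxed TAC, 10.6 and 12.3 CPM in cKO sham, and 10.8 and 20.1 CPM in cKO TAC libraries (log2 2.23 ± 0.25 in floxed hearts, adjusted p = 0.000141 by limma, and 0.35 in cKO hearts, adjusted p = 0.542). Kdelr2 rose by log2 1.38 and Kdelr1 by log2 0.30 in floxed hearts, and the coat subunits Sec23b and Sec24d by log2 0.99 and 0.86. None of the genes of these lists of translocation and traffic passed in cKO hearts in either direction. Of 18 genes of ER-associated degradation 10 rose in floxed hearts and 0 in cKO hearts, with a median of 0.38 in floxed hearts, led by the mannosidase-like Edem1 (log2 1.89), Edem2 (log2 0.77), Faf2 (log2 0.76) and the lectin Os9 (log2 0.64). For this list the interaction passed for 3 of 18 genes, all lower, next to 9.18% of all genes.

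**Figure D4:**
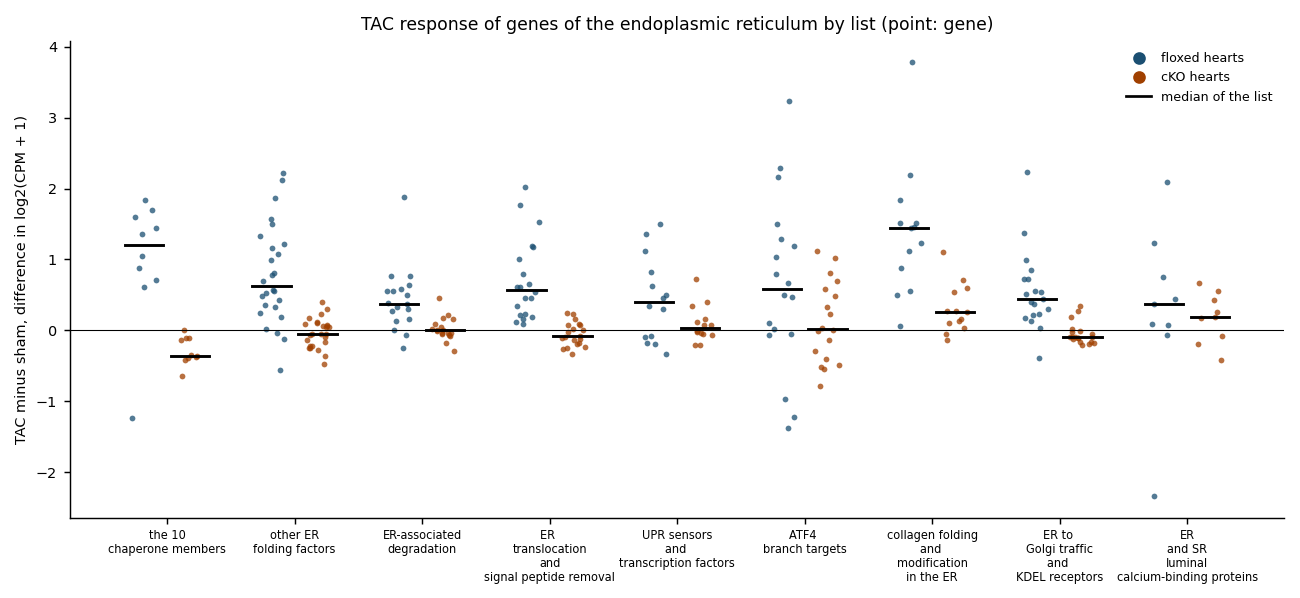
Difference in log2(CPM + 1) between TAC and sham for the genes of 9 lists of ER proteins, with a point per gene and a line at the median of the list. In the list of the 10 genes the median is 1.21 in floxed and -0.36 in cKO hearts, and in collagen folding it is 1.44 and 0.25.

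The sensors and transcription factors of the unfolded protein response did not move as a block. Of 14 genes 6 rose and 1 fell in floxed hearts, where 27.9% of all genes rose and 14.5% fell, with a median of 0.40. The sensor Eif2ak3 was at 13.3 and 12.1 CPM in floxed sham and 20.3 and 20.2 CPM in floxed TAC libraries (log2 0.63 ± 0.17, adjusted p = 0.016 by limma), with a log2 difference of -0.21 in cKO hearts (adjusted p = 0.61). Ern1 (log2 -0.19, adjusted p = 0.432) and Atf6 (log2 -0.09, adjusted p = 0.533) did not pass. The membrane-bound factors Creb3l1 (log2 1.51), Creb3l2 (log2 1.36) and Creb3 (log2 1.12) rose in floxed hearts, and 0 of these 3 passed in cKO hearts. Atf4, the factor translated when PERK is active, rose in both genotypes, by log2 0.82 ± 0.15 in floxed (adjusted p = 0.00201) and 0.72 ± 0.15 in cKO hearts (adjusted p = 0.0411), with an interaction of -0.10 (adjusted p = 0.793). Ddit3, the death-associated factor CHOP, was at 7.85 to 13.9 CPM in all libraries and did not pass (log2 -0.18 in floxed hearts, adjusted p = 0.634). Of 18 targets of the ATF4 branch 10 rose and 2 fell in floxed hearts, and 0 rose and 1 fell in cKO hearts. Gdf15 (log2 3.24), Atf3 (log2 2.29), Psat1 (log2 2.16) and Nupr1 (log2 1.5) led in floxed hearts, and Psat1 stood at log2 1.12 in cKO hearts (adjusted p = 0.0527).

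Of 9 luminal calcium-binding proteins 3 rose and 1 fell in floxed hearts, near the shares of all genes (27.9% higher and 14.5% lower). The ER proteins Rcn3 (log2 2.09), Rcn1 (log2 1.23) and Calu (log2 0.75) rose, whereas Hrc, the histidine-rich calcium-binding protein of the sarcoplasmic reticulum, went from 1622 and 1392 CPM to 256 and 345 CPM (log2 -2.34 ± 0.16, adjusted p = 1.71e-05 by limma). In cKO hearts none of the 9 passed, and Hrc stood at log2 -0.42 (adjusted p = 0.228). Genes that fold and modify collagen in the ER had the highest median of the 9 ER lists in floxed hearts, 1.44, with 12 of 13 higher. The collagen chaperone Serpinh1 (HSP47) was at 273 and 290 CPM in floxed sham, 1259 and 1326 CPM in floxed TAC, 370 and 354 CPM in cKO sham, and 310 and 531 CPM in cKO TAC libraries (log2 2.2 ± 0.20 in floxed hearts, adjusted p = 5.21e-05). The prolyl hydroxylases Leprel2 (log2 1.84) and Lepre1 (log2 1.51) rose, and P4ha3 was at 15.1 and 12.3 CPM in floxed TAC libraries, with 0.0649 and 0.06 CPM, under the limit of 3 reads, in floxed sham libraries. None of the 13 passed in cKO hearts.

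Genes sharing the exact elements were also examined outside the 10, a set formed after the values were seen. Of the 15 tested genes with an ERSE 8 rose and 1 fell in floxed hearts, and without the 5 discussed above 3 of 10 rose and 1 fell, next to 27.9% of all genes that rose. The 3 were Dnajc3 (log2 0.53), a BiP cochaperone, Adcy3 (log2 1.21) and Zfp57 (log2 1.07). Canx and Syvn1, 2 further ER genes with the element, stood at log2 0.02 and 0.33 and did not pass. Of the 7 other genes with an ERSE-II 3 rose, among them Dnajb11 (log2 0.57) and Krtcap2 (log2 0.63), a subunit of oligosaccharyltransferase.

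Markers of other cell types also differed between the groups. In bulk tissue, more cells of a type and more RNA per cell cannot be told apart. Fibroblast and matrix markers summed to 3411 to 3421 CPM in floxed sham, 12510 to 16231 CPM in floxed TAC, 3361 to 3888 CPM in cKO sham, and 4730 to 6999 CPM in cKO TAC libraries. Of 10 such markers 8 rose and 1 fell in floxed hearts, and 4 rose in cKO hearts. The sizes were uneven in floxed hearts. Col1a1 went from 165 and 207 CPM after sham to 3413 and 4100 CPM after TAC, and Pdgfra from 53.8 and 53.7 to 65.2 and 70.6 CPM. Gsn went down from 1935 and 1821 to 485 and 765 CPM. Macrophage markers summed to 419 to 425, 2097 to 2373, 343 to 452 and 752 to 1034 CPM in the same order of groups, with 10 of 10 higher in floxed and 8 of 10 in cKO hearts. Of 8 markers of B and plasma cells 4 had a row, and Cd79a, Cd79b and Igj were at most 1.73 CPM in each library, while Sdc1, also made by other cells, was at 44.3 and 49.2 CPM in floxed TAC and 17.7 CPM or less elsewhere. Cardiomyocyte markers summed to 45709 to 48345 CPM in floxed TAC and to 70285 CPM or more in the other libraries, with 8 of 12 lower and 1 higher in floxed and 0 of 12 past the threshold in cKO hearts. Among them Myh6 went from 31525 and 21059 CPM in floxed sham to 8566 and 10531 CPM in floxed TAC libraries. Tnnt2 overlapped between these groups (6064 and 5474 against 6368 and 4710 CPM), and Actn2 and Myh7 were higher in both floxed TAC libraries. The part of these cell types in the chaperone levels was not tested.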

How the data were processed

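The deposited unit is CPM, gene reads per 1000000 assigned reads, as the values themselves show: in each library 100% of them were whole multiples of 1 read within 0.02 reads. Bowtie2 2.2.6, HTSeq and DESeq2 with mm10 are named in the submitters' processing notes, and stranded mRNA libraries in the labels' protocols. The annotation and the counting settings were not given in these sources. Genes reaching 1 CPM in 2 or more libraries (13120, with 319 removed) were tested by limma 3.58.1 with a trended variance on log2(CPM + 1) in R 4.3.3, with 1 coefficient per group, all 8 libraries and 4 residual degrees of freedom. The fit was run on simulated counts with the same dispersion for every gene, which does not measure the error rate in these data. Alternatives were other pseudocounts, no filter, RLE and TMM scaling, limma-voom, edgeR 4.0.16 and DESeq2 1.42.0 on recovered reads, a replicate block, only the libraries of a comparison, and leaving out libraries. The members, gene lists and tests were chosen with earlier results of these data known. Named from the other ER lists were up to 4 genes with the largest change past the threshold in floxed hearts, the sensors Ern1, Atf6 and Eif2ak3, Atf4, Ddit3 and the KDEL receptors. Of the other marker lists, neutrophil markers had 3 of 4 tested genes higher in floxed and 0 in cKO hearts. Of these markers S100a8 reached 1 CPM only in floxed TAC libraries (1.10 and 1.07 CPM), so it was tested only through the group where it is high. S100a9 was at most 1.35 CPM in any library, and Ly6g and Retnlg had no row. The neutrophil counts therefore rest in part on values near the floor. Endothelial markers had 0 of 8 in either, smooth muscle and pericyte markers 4 higher and 2 lower of 8 in floxed and 1 each in cKO hearts, and atrial markers 0 of 4 in either.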

Additional observations from a re-analysis of the deposited data

Results flagged for a closer look

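The TAC response differed between floxed and cKO hearts, by the interaction term of limma at an adjusted p below 0.05, for 9 of the 10 chaperone genes. The interaction (log2, cKO response minus floxed response) was -0.98 for Hspa5, -1.07 for Hsp90b1, -1.71 for Pdia4, -1.81 for Pdia6, -1.29 for Calr, -1.16 for Xbp1, -1.84 for Manf, -1.76 for Creld2 and -2.49 for Sdf2l1. The same test passed for 23 of the 37 named genes of the other lists, most of which were named for a large response in floxed hearts, which is itself a term of the interaction. It did not pass for the other 14, which were Edem2, Os9, Creb3l2, Atf4, Ern1, Atf6, Eif2ak3, Ddit3, Gdf15, Psat1, Nupr1, Leprel2, Sec24d and Kdelr1, with adjusted p from 0.0502 to 0.793. In folding it was -1.83 for Pdia5, -2.03 for Fkbp11, -1.57 for Txndc5 and -1.40 for P4hb. In degradation it was -1.43 for Edem1 and -0.72 for Faf2. In translocation it was -1.79 for Spcs3, -1.69 for Sec61b, -1.29 for Sec61a1 and -1.12 for Ssr2. Among factors it was -1.57 for Creb3l1 and -0.77 for Creb3, and among ATF4 targets -3.07 for Atf3. Atf3 was at 2.98 and 4.8 CPM in floxed sham and 13.1 and 12 CPM in cKO sham libraries. That sham difference (log2 1.49, adjusted p = 0.388 by limma) did not pass but is part of its interaction. In collagen folding it was -2.68 for P4ha3 (a fitted value for a gene with at most 1 read in each sham library), -2.03 for Serpinh1 and -1.26 for Lepre1. In traffic it was -1.88 for Kdelr3, -1.48 for Kdelr2 and -1.08 for Sec23b. Among calcium-binding proteins it was -1.42 for Rcn3, -1.06 for Rcn1 and -0.55 for Calu, and Hrc had the opposite sign at 1.92.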

How the results depend on the processing

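Over 19 alternatives (18 for the interaction), the 9 genes that rose in floxed TAC hearts kept their direction in that comparison, after TAC between genotypes and in the interaction. Leaving out 1 library gave 8 to 9 members higher and 0 to 1 lower in floxed hearts, 8 to 9 lower and 0 to 1 higher between genotypes after TAC, and 5 to 9 lower and 0 to 1 higher in the interaction. All genes past the threshold then ranged from 3618 to 5921, 73 to 614 (cKO), 1 to 16 (sham), 1330 to 3624 (TAC) and 253 to 2918 (interaction). In cKO hearts 332 of all genes passed, compared with 688 when DESeq2 was used, 133 with limma-voom, 62 when the 3 libraries with high Myl7 were left out, and 45 if the floxed libraries were. In sham hearts it was 2 by limma-voom and 49 by DESeq2, against 7. Leaving out the 3 libraries with high Myl7 left 1 library in every group but floxed TAC. Herpud1 then stood at log2 1.49 after TAC between genotypes and 1.92 in the interaction. Its cKO TAC value was in that fit cKO TAC 1 alone. In cKO hearts, near 0, Herpud1 changed sign under RLE (-0.0194), TMM (-0.00569) and limma-voom (-0.00842) and without cKO sham 1 (-0.128) or cKO TAC 1, Manf without cKO sham 1 (0.0112) or cKO TAC 1, and Pdia4 without cKO TAC 1. Leaving out 1 library gave log2 -0.68 to 0.69 for Herpud1, -0.352 to 0.0817 for Manf and -0.376 to 0.154 for Pdia4. None of these passed, and the cause was not tested. Same-numbered replicates did not deviate together over all tested genes (correlations between -0.105 and 0.0812 over 6 pairs of groups). This cannot exclude a pairing that touches few genes, and the 3 libraries with high Myl7 were all numbered replicate 2. With a replicate block the counts were 9 members higher and 1 lower in floxed hearts, 0 in cKO hearts and in sham hearts, 9 lower after TAC and 9 lower in the interaction. With 2 libraries a group, small changes in genes of few reads such as Sdf2l1 may be missed.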
